A study of Mus musculus with 48 samples.

Results

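The sebaceous gland lipid genes described here are Scd1, Scd3, Elovl3, Mc5r, Soat1 and Dgat2, 6 genes listed by name with earlier results of these data known. They were followed in skin RNA of C3H/HeJ mice on 48 Affymetrix arrays, in a study of whether agents acting on interleukin-15 (IL-15) signalling keep alopecia areata, an autoimmune hair loss, from developing. A probe set represented a gene where its annotation named that gene alone, and of several the brightest over the arrays was taken. Of the 6 genes, 5 had such a probe set among 18194 genes in all, and Soat1 was not analysed here. Scd1, Scd3, Elovl3 and Dgat2 were among the 13650 genes tested, those with signal above the table median of 6.7 in at least 3 arrays, and Mc5r was not.

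The arrays fell into 13 groups by treatment and week of their titles, and all groups were skin of the C3H/HeJ strain. Week 5 held sham animals (n = 4), vehicle animals given phosphate-buffered saline (PBS) intraperitoneally (ip, n = 4) and animals given il15rb (n = 3), an antibody to the IL-15 receptor beta chain. Week 6 held jak3i (n = 5) and jak12i (n = 5), which from knowledge of the study are tofacitinib and ruxolitinib, inhibitors of the JAK kinases that pass on cytokine signals, with PBS by pump (n = 3) and by gavage (n = 5). Week 13 held all 3 treatments and all 3 vehicles with n = 3 each. The model as generally run grafts skin of affected mice onto young healthy ones, what sham animals received is not spelled out in the labels, and age and sex are not given in the sources used here. Each agent was set against the vehicle of its route in its week. The routes, ip for il15rb, pump for jak3i and gavage for jak12i, were taken from knowledge of the study, since the labels leave them out. One array was left out because its title (PBS ip, week 5) and its treatment label (the antibody) conflict, so 47 arrays were compared.

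Sebaceous glands are attached to hair follicles, and their cells fill with lipid, burst and release sebum, a mixture of triglycerides, wax esters and sterol esters. Stearoyl-CoA desaturases such as Scd1 and Scd3 put a double bond into saturated fatty acids, the elongase Elovl3 makes very long chains, Dgat2 adds the last fatty acid of a triglyceride and Soat1 esterifies cholesterol. Mc5r is a receptor for melanocortin peptides that promotes sebum secretion. Mouse skin also has fat tissue under the dermis, and Scd1 and Dgat2 are known to be active there too. Mice that lack Scd1 are known to have shrunken sebaceous glands and hair loss.

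Signals are on the log2 scale, so a difference of 1 is 2-fold, and changes are given ± the standard error (SE) of the limma fit, with p-values adjusted over all tested genes. The 75th percentile of an array's signals was 8.47 to 8.68 in week 5, 8.15 to 8.35 in week 6 and 8.68 to 8.78 in week 13. Within week 6 that percentile was 8.29 to 8.35 in PBS gavage and 8.15 to 8.25 in the other groups. Weeks and batches cannot be told apart, and each treatment was compared within its week. Whether batches also differed within a week was not tested. The mean of 10 epidermis markers lay between 12.4 and 13.2 in every array. The mean of 14 skeletal muscle genes lay below 8 in 3 arrays, PBS gavage replicate 5 of week 6, PBS ip replicate 3 of week 13 and PBS pump replicate 2 of week 13, and above 10 in all others. The mean of 10 hair shaft keratins lay above 9 in 3 arrays of weeks 5 and 6, sham replicate 4 and jak12i replicates 2 and 3, and below 7 in the other arrays of those weeks. Whole skin was measured, so fewer cells of a type and less RNA per cell cannot be told apart.

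**Figure D1:**
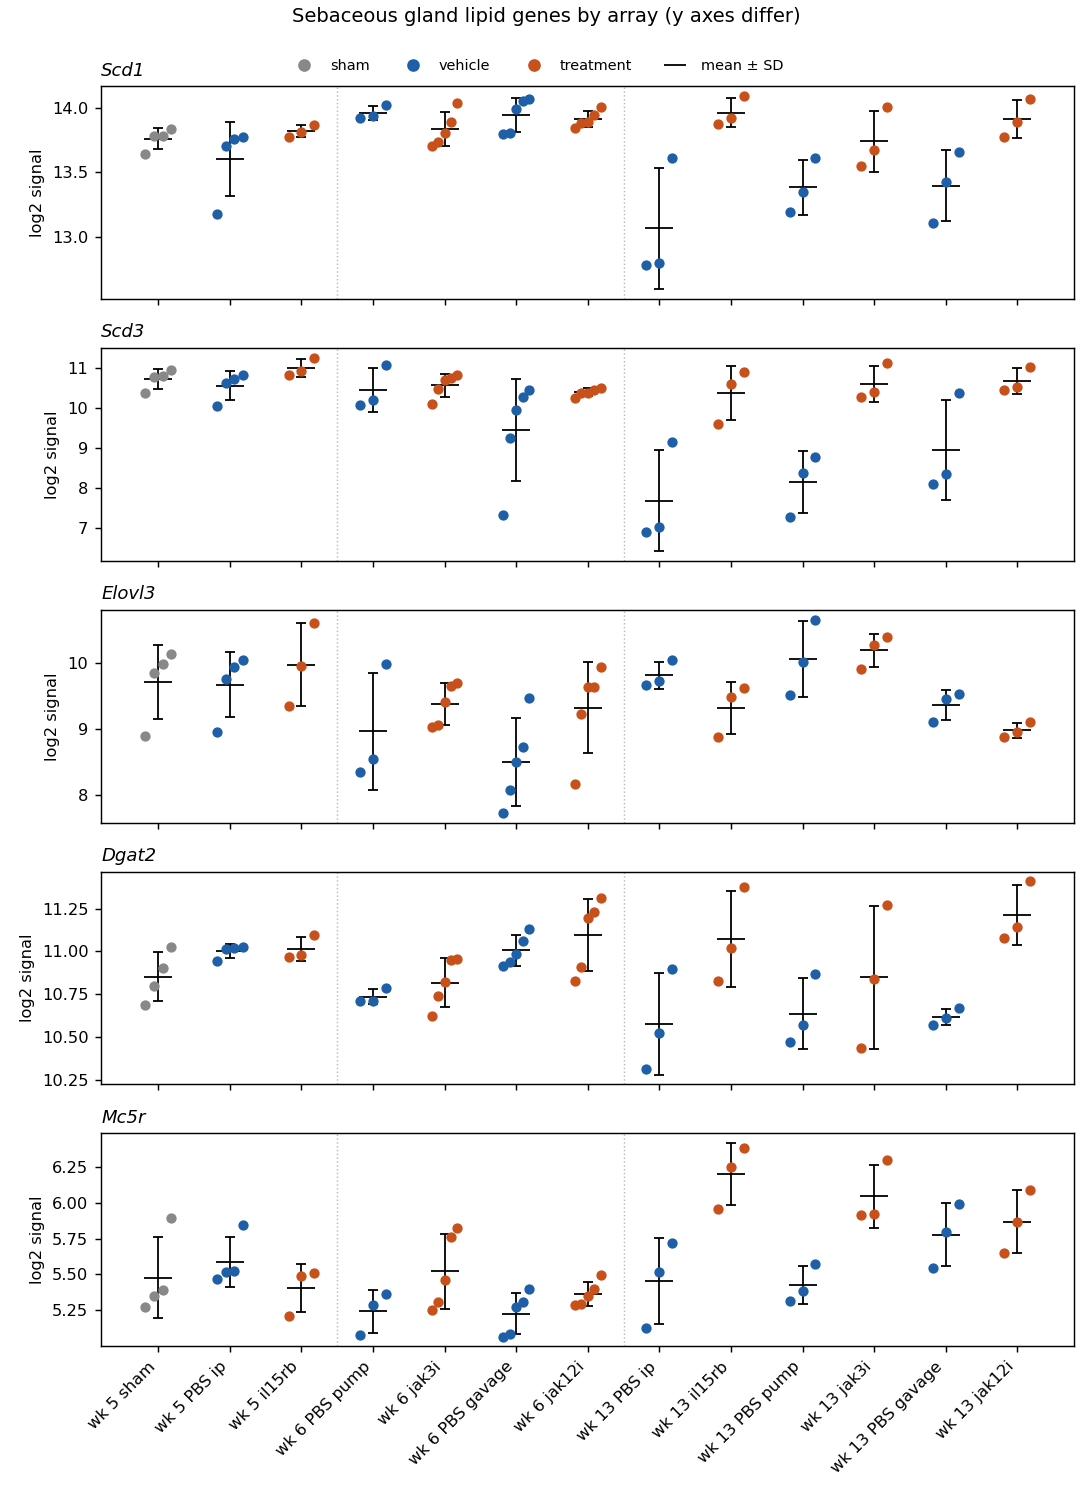
Log2 signal of the 5 measured genes (y axes, scales differ) in the 13 groups (x axis), 1 point per array, with the group mean and SD. Scd3 and Scd1 were lowest in the 3 vehicle groups of week 13, whose mean Scd3 signals were 7.69, 8.15 and 8.95.

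Scd3 had the widest spread of group means among the measured genes, from 7.69 ± 1.26 (SD, n = 3) in PBS ip of week 13 to 10.99 ± 0.22 (SD, n = 3) in il15rb of week 5. The 3 lowest means were those of the week 13 vehicles, and the other 10 groups had means between 9.45 and 10.99. In order of their means, 11 of the 12 neighbouring groups differed by less than the larger of their SDs. In PBS ip of week 13 the signals were 6.91, 9.15 and 7.02, and in il15rb of the same week 10.89, 9.60 and 10.60. Every treated array lay above every vehicle array. Scd3 rose by 2.67 ± 0.55 under il15rb (6.35-fold, adjusted p = 0.000558), and leaving out 1 array at a time gave 2.27 to 3.39, the highest without PBS ip replicate 2.

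Under jak3i at week 13 the Scd3 signals were 11.11, 10.41 and 10.26, and in PBS pump they were 8.38, 8.77 and 7.29. Both groups stood apart, and Scd3 rose by 2.45 ± 0.55 (5.45-fold, adjusted p = 0.00212). Under jak12i they were 10.44, 11.03 and 10.52, and in PBS gavage 10.37, 8.35 and 8.12. PBS gavage replicate 1 reached the treated arrays to within 0.07, yet the groups did not overlap. Scd3 rose by 1.71 ± 0.55 (3.28-fold, adjusted p = 0.0234). This call was lost without jak12i replicate 2 (1.53, adjusted p = 0.0775), without PBS gavage replicate 2 (1.42, adjusted p = 0.107) or without PBS gavage replicate 3 (1.30, adjusted p = 0.171), and the rise was 2.43 without PBS gavage replicate 1. Without the arrays of low muscle signal the rise of Scd3 was 2.33 under il15rb (adjusted p = 0.00161) and 2.76 under jak3i (adjusted p = 0.000154).

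At weeks 5 and 6 no change of Scd3 passed. It differed by 0.44 ± 0.52 between il15rb and PBS ip (adjusted p = 1.0, 95% interval -0.61 to 1.49) and by 0.12 ± 0.50 between jak3i and PBS pump (adjusted p = 0.963, interval -0.89 to 1.12). Between jak12i and PBS gavage of week 6 it differed by 0.94 ± 0.43 (adjusted p = 0.160). The 5 jak12i signals lay close together, from 10.24 through a median of 10.38 to 10.49. The PBS gavage signals were 10.26, 10.45, 9.26, 9.94 and 7.34, the last in the array whose muscle list mean was 7.53. Without that array the difference was 0.41.

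The less bright probe set of Scd3 gave larger differences at week 13. In PBS ip it read 5.88, 8.04 and 4.85, and under il15rb 10.17, 8.92 and 10.28, a rise of 3.53 ± 0.69 (adjusted p = 0.000279). The rise was 3.43 ± 0.69 under jak3i (adjusted p = 0.000553) and 2.45 ± 0.69 under jak12i (adjusted p = 0.00965), and the groups did not overlap in any of the 3 comparisons. Scd1 and Scd3 are close relatives, and probe sequences were not used here, so signal shared between them could not be checked.

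**Figure D2:**
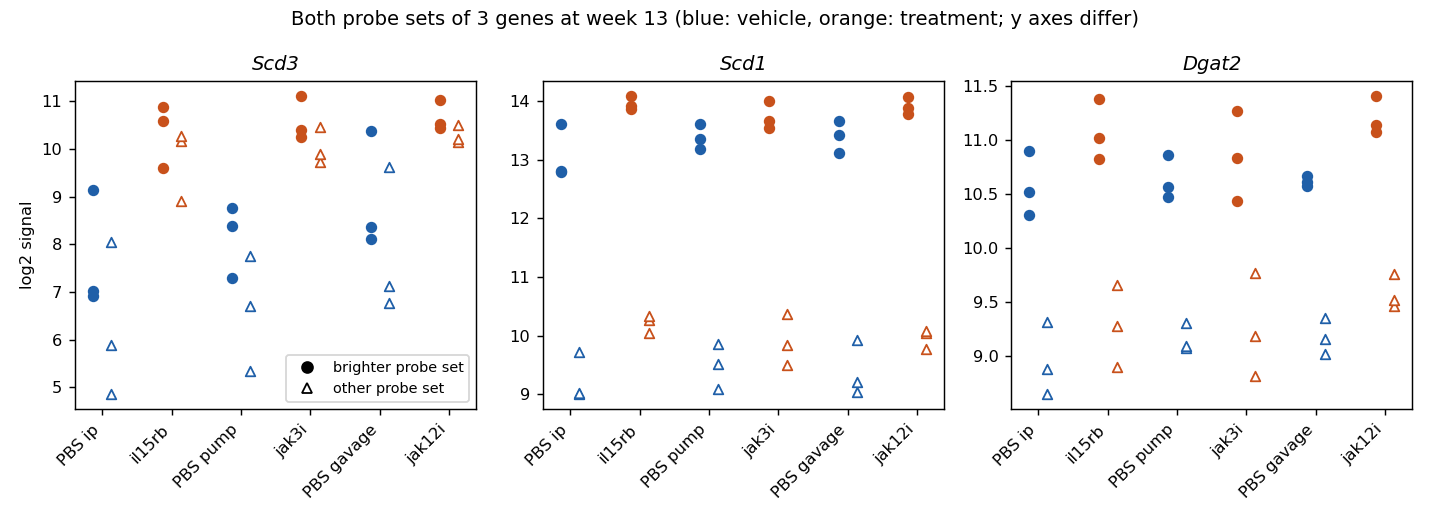
Log2 signal (y axes, scales differ) of both probe sets of Scd3, Scd1 and Dgat2 in the 6 groups of week 13 (x axis), 1 symbol per array. Both Scd3 probe sets lie higher in every treated group than in its vehicle, without overlap, and the less bright one gave rises of 3.53, 3.43 and 2.45.

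Scd3 lies on chromosome 19, as do Scd1 and Elovl3, in RefSeq's annotation of the mouse build GRCm38.p6. Its promoter is shown because Scd3 changed most, and of the measured genes it was the one with an entry in the RefSeq promoter table used here. The 250 bases before its start, chr19:44203038-44203287 on the plus strand, read as follows.
Scd3 promoter: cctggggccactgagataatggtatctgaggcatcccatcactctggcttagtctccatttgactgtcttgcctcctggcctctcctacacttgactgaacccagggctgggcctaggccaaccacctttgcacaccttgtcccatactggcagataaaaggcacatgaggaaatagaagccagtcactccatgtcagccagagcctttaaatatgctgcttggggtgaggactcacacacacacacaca
Nothing is in capitals because none of the motifs searched on both strands had an exact match. They were CCAAT (in 33.8% of 32851 promoters of that length), the sterol regulatory element TCACNCCAC (1.05%), TATAAA (12.4%), the nuclear receptor site AGGTCA (14%) and its direct repeat with 1 base between (0.0335%), which contains AGGTCA, and TTCNNNGAA of the STAT factors that act below JAK kinases (7.02%). AGGTCA and TTCNNNGAA were added after the others had been searched. This says only that these letters are not in this window.

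Scd1, the main desaturase of skin, had signals between 12.79 and 14.09, close to the array maxima of 14.35 to 14.78, and whether its differences were compressed there was not tested. Its lowest group means were again the vehicles of week 13, at 13.07 ± 0.47 for PBS ip, 13.38 ± 0.21 for PBS pump and 13.40 ± 0.27 for PBS gavage (SD, n = 3 each). The other 10 groups had means from 13.60 to 13.96, and no neighbouring groups in the order of means differed by more than the larger SD.

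At week 13 Scd1 read 12.81, 13.61 and 12.79 in PBS ip and 13.92, 13.87 and 14.09 under il15rb. The groups did not overlap, and Scd1 rose by 0.89 ± 0.16 (1.86-fold, adjusted p = 7.41e-05), or by 0.75 without PBS ip replicate 3, the array of low muscle signal (adjusted p = 0.00234). Under jak12i it read 14.07, 13.78 and 13.89, against 13.65, 13.43 and 13.11 in PBS gavage, a rise of 0.51 ± 0.16 without overlap (1.43-fold, adjusted p = 0.0163). That call was lost without jak12i replicate 1 (0.44, adjusted p = 0.0866) or PBS gavage replicate 3 (0.37, adjusted p = 0.158). Under jak3i it read 14.00, 13.67 and 13.55, against 13.19, 13.61 and 13.35 in PBS pump. Here the groups overlapped and the difference of 0.36 ± 0.16 did not pass (adjusted p = 0.117, interval 0.04 to 0.67).

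The less bright probe set of Scd1 differed by 0.97 ± 0.22 under il15rb, which passed (adjusted p = 0.00123), by 0.57 ± 0.22 under jak12i (adjusted p = 0.0559) and by 0.41 ± 0.22 under jak3i (adjusted p = 0.205), which did not. At weeks 5 and 6 the brighter probe set differed by 0.21 ± 0.15 under il15rb (adjusted p = 1.0), by -0.12 ± 0.14 under jak3i (adjusted p = 0.758) and by -0.03 ± 0.12 under jak12i (adjusted p = 0.909). In PBS ip of week 5 replicate 5 read 13.18 while the other 3 arrays read between 13.70 and 13.78.

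Dgat2, on chromosome 7, completes triglyceride synthesis in sebocytes and fat cells. Its group means ran from 10.58 in PBS ip of week 13 to 11.21 in jak12i of week 13, and the 3 week 13 vehicles were again lowest. Under jak12i at week 13 it read 11.41, 11.14 and 11.08, and in PBS gavage 10.57, 10.67 and 10.61. The groups did not overlap, and Dgat2 rose by 0.60 ± 0.15 (1.51-fold, adjusted p = 0.00429). Under il15rb it read 11.02, 10.83 and 11.38, and in PBS ip 10.52, 10.90 and 10.31. Dgat2 rose by 0.50 ± 0.15 (1.41-fold, adjusted p = 0.0137) although PBS ip replicate 2 lay above il15rb replicate 2. This call was lost without il15rb replicate 3 (0.35, adjusted p = 0.140), PBS ip replicate 1 (0.47, adjusted p = 0.0577) or PBS ip replicate 3 (0.37, adjusted p = 0.134), the last the array of low muscle signal, and also with the mean of both Dgat2 probe sets (0.41, adjusted p = 0.0581).

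Under jak3i at week 13 Dgat2 read 11.27, 10.84 and 10.44, the widest spread of its groups, and it differed from PBS pump by 0.21 ± 0.15 (adjusted p = 0.370, interval -0.10 to 0.52). The less bright Dgat2 probe set differed by 0.33, 0.10 and 0.41 under il15rb, jak3i and jak12i, and none of these passed (adjusted p = 0.200, 0.776 and 0.118). At weeks 5 and 6 the differences of the brighter one were 0.01, 0.08 and 0.09, with adjusted p of 1.0, 0.861 and 0.667.

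Elovl3, the elongase of very long chains, was not called in any of the 6 comparisons. Its lowest group mean was 8.50 ± 0.67 (SD, n = 5) in PBS gavage of week 6 and its highest 10.19 ± 0.25 (SD, n = 3) in jak3i of week 13. At week 13 it read 10.04, 9.73 and 9.67 in PBS ip and 9.48, 9.61 and 8.87 under il15rb, every treated array below every vehicle array. The difference of -0.49 ± 0.42 did not pass (adjusted p = 0.409, interval -1.33 to 0.35). It differed by 0.13 ± 0.42 under jak3i (adjusted p = 0.876) and by -0.38 ± 0.42 under jak12i (adjusted p = 0.555).

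At week 6 Elovl3 read 9.64, 9.94, 9.64, 8.17 and 9.22 under jak12i and 7.72, 8.49, 8.72, 8.07 and 9.47 in PBS gavage. The groups overlapped, and the difference of 0.82 ± 0.32 did not pass (adjusted p = 0.0986). It passed without jak12i replicate 4 (1.11, adjusted p = 0.0208) or without PBS gavage replicate 5, the array of low muscle signal (1.07, adjusted p = 0.0408). The highest Elovl3 signal under jak12i was in replicate 2, whose hair shaft list mean was 10.43, and the other arrays of high hair shaft signal were jak12i replicate 3 (Elovl3 at 9.64) and sham replicate 4 (10.14, the highest of its group). Over the 47 arrays, with week means removed, Elovl3 correlated with the hair shaft list mean at r = 0.53. Without the 3 arrays of high hair shaft signal its difference under jak12i at week 6 was 0.51 (adjusted p = 0.437). At weeks 5 and 6 Elovl3 differed by 0.30 ± 0.39 under il15rb (adjusted p = 1.0) and by 0.41 ± 0.37 under jak3i (adjusted p = 0.671).

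Mc5r, the melanocortin receptor, was below the table median in all 47 arrays, between 5.07 and 6.38, and was kept out of the fit by the filter. Its 3 highest group means were those of the week 13 treatments, at 6.20 ± 0.22 for il15rb, 6.04 ± 0.22 for jak3i and 5.87 ± 0.22 for jak12i (SD, n = 3 each), followed by PBS gavage of week 13 at 5.78 ± 0.22. Mc5r read 6.38, 5.96 and 6.25 under il15rb and 5.72, 5.52 and 5.13 in PBS ip. It read 5.92, 5.91 and 6.30 under jak3i and 5.32, 5.57 and 5.38 in PBS pump. Neither pair of groups overlapped. In a fit without the filter, over 18194 genes, the differences were 0.74 ± 0.16 under il15rb (adjusted p = 0.00112), 0.62 ± 0.16 under jak3i (adjusted p = 0.00859) and 0.09 ± 0.16 under jak12i (adjusted p = 0.760). The change under il15rb was larger at week 13 than at week 5 by 0.93 ± 0.22 (adjusted p = 0.00789). With signals this low these are differences of a dim probe set, and no fold is given.

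**Figure D3:**
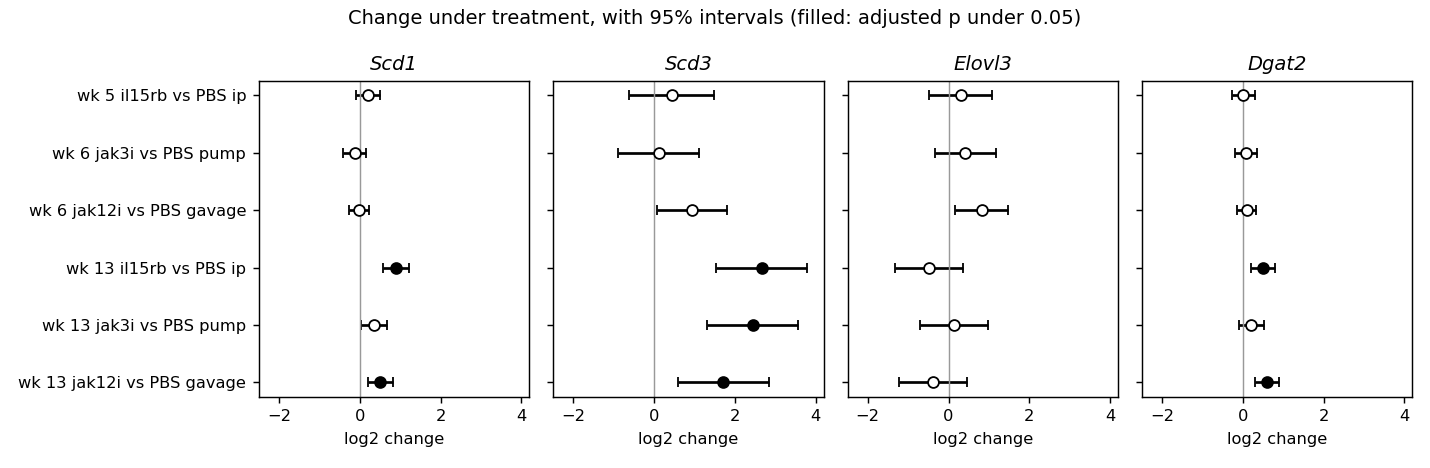
Change in log2 signal (x axis) of the 4 tested genes in the 6 comparisons of a treatment with its vehicle (y axis), with 95% intervals, filled where the adjusted p was under 0.05. All filled points are at week 13: Scd3 in the 3 comparisons, Scd1 and Dgat2 under il15rb and jak12i.

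Of the 4 tested genes, 3 were called under il15rb at week 13, where 25.7% of all tested genes were called. Under jak3i 1 of 4 was called, against 16% of all, and under jak12i 3 of 4, against 21.9%. Their median change was 0.70, 0.28 and 0.55, and the median over all tested genes was 0.01, 0.03 and 0.02. At week 5 none of 4 was called under il15rb (0.0733% of all tested genes), and at week 6 none under jak3i (4.1%) or jak12i (9.58%). The calls rested on a spread estimated over all 13 groups. In a fit on the arrays of week 13 alone, Scd3 was still called under il15rb and jak3i and Scd1 under il15rb, while Dgat2 lost its call under il15rb (adjusted p = 0.0961), and Scd1, Scd3 and Dgat2 lost theirs under jak12i (adjusted p = 0.105, 0.0871 and 0.0605). In fits on both compared groups alone, the calls under il15rb of Scd1 (adjusted p = 0.0729), Scd3 (0.0681) and Dgat2 (0.155) were lost too. At weeks 5 and 6 the smallest unadjusted p of the 4 genes were 0.0148 for Elovl3 and 0.0357 for Scd3, both under jak12i.

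The change under il15rb was larger at week 13 than at week 5 for Scd1, by 0.68 ± 0.21 (adjusted p = 0.0357), a comparison in which 10.6% of all tested genes were called. For Scd3 the same difference was 2.23 ± 0.76 and missed the threshold (adjusted p = 0.0525). The change under jak3i was larger at week 13 than at week 6 for Scd3, by 2.33 ± 0.74 (adjusted p = 0.0413), against 9.18% of all genes called. For jak12i none of the 4 passed, with Scd1 at 0.54 ± 0.20 (adjusted p = 0.0564) and 16.1% of all genes called. Leaving out 1 array ended the Scd1 call for 10 of 13 arrays (range 0.54 to 0.95) and the Scd3 call for 10 of 14 (range 1.90 to 2.64), with adjusted p of at most 0.147 in both.

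The vehicle and sham groups showed no called difference in any of the 4 genes. PBS ip and sham of week 5 differed by -0.16 ± 0.14 in Scd1, -0.17 ± 0.48 in Scd3, -0.04 ± 0.36 in Elovl3 and 0.15 ± 0.13 in Dgat2 (adjusted p = 1.0 for each), where 0.0293% of all genes were called. At week 6, PBS pump and PBS gavage differed in 37.2% of all tested genes, and by 0.99 ± 0.50 in Scd3 (adjusted p = 0.113) and -0.27 ± 0.14 in Dgat2 (adjusted p = 0.116). At week 13 PBS pump against PBS ip (0.0513% of all genes called), PBS gavage against PBS ip (0%, with 1526 genes at an unadjusted p under 0.05 in the limma fit) and PBS pump against PBS gavage (0.0513%) left all 4 uncalled. The widest of these for Scd3 was 1.25 ± 0.55 between PBS gavage and PBS ip (adjusted p = 0.374). Without PBS ip replicate 2 it was 1.98 (adjusted p = 0.0298), and Scd1 then stood higher in PBS gavage by 0.60 (adjusted p = 0.0116) and in PBS pump by 0.59 (adjusted p = 0.0393) than in PBS ip.

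PBS ip replicate 2 was the array of its group with the highest Scd1, Scd3 and Dgat2, at 13.61, 9.15 and 10.90. It also had the highest means of the group for the adipocyte list (10.50, against 9.51 and 9.32) and the muscle list (12.67, against 10.26 and 7.25), and the lowest for the T cell list (8.23, against 8.83 and 9.45). The part of these other tissues in the gene values was not tested.

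Correlations were taken across the 47 arrays with week means removed, which share tissue make-up and normalization. Differences between treatment and vehicle stayed in these values. Scd1 correlated with Scd3 at r = 0.69 and with Dgat2 at r = 0.69, Scd3 with Mc5r at r = 0.60, and Elovl3 with none of the others above 0 (r = -0.02 to -0.25). The genes most like Scd1 were Rbp4, the retinol carrier (r = 0.87), Pparg, the nuclear receptor of fat cells and sebocytes (0.85), and Amy1, an amylase (0.84). Those most like Scd3 were Pxmp4, a peroxisomal membrane protein (0.93), Emc9 (0.89) and Acacb, an acetyl-CoA carboxylase (0.89). Those most like Dgat2 were Tspan8 (0.83), Gdpd2 (0.82) and the clock gene Cry2 (0.81). Elovl3 was most like Aox4, an aldehyde oxidase (0.77), Hilpda, a lipid droplet protein (0.71), and 4930438A08Rik (0.66), and Mc5r most like She (0.71), Tinagl1 (0.70) and Pcdh20 (0.69). With the mean of the 5 measured genes, each scaled to its own spread, the most alike were Acacb (0.89), the lipase family gene Pnpla5 (0.88), Fa2h, which hydroxylates fatty acids (0.86), Prxl2a (0.86) and Echdc1 (0.85).

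The wider set of sebum and sebocyte genes moved in both directions at week 13. Of 19 tested, 7 rose and 4 fell under il15rb (median change 0.25), 9 rose and 3 fell under jak3i (0.38), and 7 rose and 3 fell under jak12i (0.28). Of all tested genes 25.7%, 16% and 21.9% were called, with medians of 0.01, 0.03 and 0.02. Plin5, a coat protein of lipid droplets, rose by 1.5 ± 0.20, 1.26 ± 0.20 and 1.44 ± 0.20 under il15rb, jak3i and jak12i (adjusted p = 2.07e-06, 2.47e-05 and 4.43e-06). Pparg rose by 1.60 ± 0.20, 0.96 ± 0.20 and 1.0 ± 0.20 (adjusted p = 7.37e-07, 0.00111 and 0.000566). Krt79, a keratin of the sebaceous duct, fell by 0.93, 0.84 and 0.91 (SE 0.14 each, adjusted p = 8.63e-06, 3.85e-05 and 1.41e-05). Without the arrays of low muscle signal the counts were 4 higher and 3 lower under il15rb (16% of all genes called) and 9 and 2 under jak3i (15.4%). At week 6 under jak12i, 9.58% of all tested genes were called, 203 higher and 1105 lower (median change -0.03). The sebum and sebocyte list had 2 rises of 19 there and no fall (median change 0.31). They were Acsm3, an acyl-CoA synthetase, by 1.0 ± 0.25 (adjusted p = 0.00853) and Far2, which makes the fatty alcohols of wax esters, by 0.67 ± 0.21 (adjusted p = 0.0387). The list had no call in the other 2 comparisons of weeks 5 and 6 (0.0733% of all genes called under il15rb, 4.1% under jak3i).

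Genes of fatty acid and triglyceride synthesis other than the 6 genes numbered 26 tested. At week 13, 12 rose and 3 fell under il15rb (median change 0.45), 5 rose and 1 fell under jak3i (0.13), and 9 rose and 4 fell under jak12i (0.31). Mlxipl, a transcription factor that responds to sugar, rose by 1.83 ± 0.32, 1.03 ± 0.32 and 1.0 ± 0.32 (adjusted p = 6.73e-05, 0.0223 and 0.0208). Gpam, which starts glycerolipid synthesis, rose by 1.0 ± 0.16, 0.50 ± 0.16 and 0.62 ± 0.16 (adjusted p = 1.83e-05, 0.0276 and 0.00410). Lpin2, a phosphatidate phosphatase, fell in each, by 0.71, 0.59 and 0.73 (SE 0.15 each, adjusted p = 0.000534, 0.00440 and 0.000444), while its relative Lpin1 rose by 1.67, 0.85 and 0.97 (SE 0.25 each, adjusted p = 9.63e-06, 0.0190 and 0.00513). The shares over all tested genes were again 25.7%, 16% and 21.9%. At week 6 under jak12i 1 rose and 6 fell of the 26, where 203 of all tested genes rose and 1105 fell (9.58% called), and the list median of -0.07 stood beside -0.03 over all genes. Agpat3, which adds a fatty acid on the way to glycerolipids, fell by 0.30 ± 0.08 (adjusted p = 0.0123) and Acaca, an acetyl-CoA carboxylase, by 0.53 ± 0.14 (adjusted p = 0.0127). Without PBS gavage replicate 5 there were 1 rise and 3 falls (6.30% of all genes called).

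No tested gene of cholesterol synthesis rose at week 13. Of 20 tested, 2, 3 and 4 fell under il15rb, jak3i and jak12i, shares at or below the 25.7%, 16% and 21.9% called of all tested genes. The list medians were -0.13, -0.05 and -0.20. Sc5d and Ebp, enzymes late in the pathway, fell in each, Sc5d by 0.82, 0.75 and 0.85 (SE 0.18 each, adjusted p = 0.000868, 0.00308 and 0.000697) and Ebp by 0.43, 0.36 and 0.54 (SE 0.11 each, adjusted p = 0.00385, 0.0206 and 0.000547). At week 6, 6 of 20 fell under jak12i, where 9.58% of all tested genes were called (list median -0.18, all genes -0.03). The falls were led by the regulator Srebf2 (by 0.55 ± 0.11, adjusted p = 0.000749). Without PBS gavage replicate 5 there was 1 fall (6.30% of all genes called). Under jak3i at week 6, 2 of 20 rose (4.1% of all genes called). The vehicles of week 6 differed in this list as well. In PBS pump 11 of 20 were lower than in PBS gavage and none higher (list median -0.37), where 37.2% of all tested genes were called. The list mean was 9.34 in PBS pump, 9.56 under jak3i, 9.75 in PBS gavage and 9.54 under jak12i. How far the vehicles account for these calls was not tested. Of 10 genes of sterol esters and cholesterol transport, 0 rose and 1 fell under il15rb at week 13, 2 rose and 0 fell under jak3i, and 2 rose and 1 fell under jak12i, against 25.7%, 16% and 21.9% of all genes called. Abca1, a cholesterol exporter, rose by 0.45 ± 0.14 under jak3i (adjusted p = 0.0274) and by 0.48 ± 0.14 under jak12i (adjusted p = 0.0145). The receptor Scarb1, which takes up cholesterol esters, rose by 0.79 ± 0.20 under jak3i (adjusted p = 0.00643), and Nr1h3, a nuclear receptor for oxysterols, by 0.40 ± 0.12 under jak12i (adjusted p = 0.0142). The exporter Abcg1 fell by 0.90 ± 0.22 under il15rb (adjusted p = 0.00257) and by 0.79 ± 0.22 under jak12i (adjusted p = 0.00874). Under jak3i it fell by 0.87 ± 0.20 at week 6 (adjusted p = 0.00609), and its change of -0.50 ± 0.22 at week 13 did not pass (adjusted p = 0.117).

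Of the melanocortin genes other than Mc5r, 5 were tested. Mc2r, the receptor for ACTH, rose by 1.53 ± 0.23, 0.84 ± 0.23 and 1.84 ± 0.23 under il15rb, jak3i and jak12i at week 13 (adjusted p = 1.18e-05, 0.0119 and 9.65e-07). Mrap, its accessory protein, rose by 1.92 ± 0.22 under il15rb (adjusted p = 1.80e-07) and by 1.20 ± 0.22 under jak12i (adjusted p = 0.000191). Both are known to be abundant in fat cells, and no other tested gene of the list was called at week 13. The shares called over all tested genes were 25.7%, 16% and 21.9%.

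**Figure D4:**
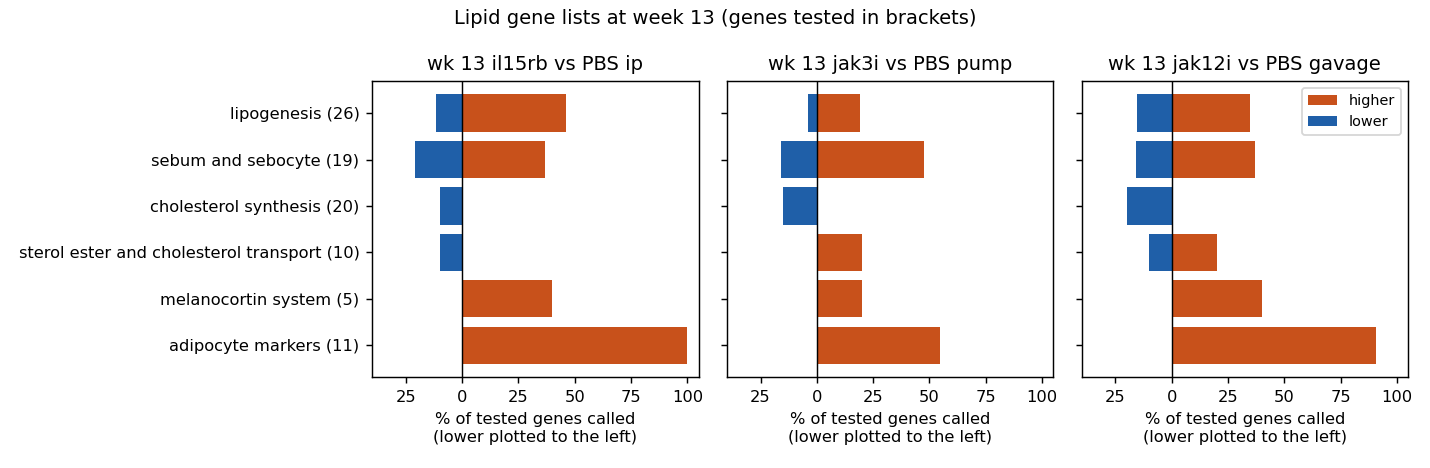
Share of tested genes in each lipid list (x axis, percent) called higher (right) or lower (left) at week 13, for each treatment against its vehicle, with the number tested in brackets. All 11 adipocyte markers were higher under il15rb, and no cholesterol synthesis gene was higher in any of the 3 comparisons. The shares called over all tested genes were 25.7%, 16% and 21.9% under il15rb, jak3i and jak12i.

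Markers of other tissues also changed at week 13, in differing directions. Of 11 adipocyte markers 11, 6 and 10 rose under il15rb, jak3i and jak12i and none fell, with median changes of 1.55, 0.68 and 1.24. The shares called over all tested genes were 25.7%, 16% and 21.9%. The adipocyte list mean ran from 9.32 to 10.50 in PBS ip and from 11.22 to 11.63 under il15rb, from 10.23 to 10.35 in PBS pump and from 10.84 to 11.57 under jak3i, and from 10.11 to 10.71 in PBS gavage and from 11.42 to 11.83 under jak12i. No pair of groups overlapped in it. Over the 47 arrays with week means but not treatment differences removed, it correlated with Scd1 at r = 0.83, Scd3 at 0.76, Dgat2 at 0.67, Mc5r at 0.51 and Elovl3 at -0.24. The mean of the sebum and sebocyte list correlated with Scd1 at r = 0.61, Scd3 at 0.76, Dgat2 at 0.51, Mc5r at 0.47 and Elovl3 at 0.27. Of 14 muscle genes 13 rose under il15rb, 1 under jak3i and 0 under jak12i, the counts under jak3i and jak12i below those shares. Their median changes were 3.16, 2.36 and 0.49, or 1.97 under il15rb and 0.80 under jak3i without the arrays of low muscle signal. The muscle list mean ran from 7.25 to 12.67 in PBS ip and from 13.01 to 13.44 under il15rb. It ran from 7.54 to 12.48 in PBS pump and from 12.93 to 13.09 under jak3i, without overlap. In PBS gavage it ran from 12.37 to 12.74 and under jak12i from 12.37 to 13.58. It correlated with Scd3 at r = 0.70, Scd1 at 0.44, Dgat2 at 0.24, Mc5r at 0.49 and Elovl3 at -0.14. All 12 T cell and cytotoxic genes fell under il15rb and under jak3i and 10 of 12 under jak12i, and all 11 interferon gamma response genes fell in the 3 comparisons. The T cell list mean ran from 8.23 to 9.45 over the 9 week 13 vehicle arrays and from 6.57 to 7.31 over the 9 treated arrays. It correlated with Scd3 at r = -0.80, Scd1 at -0.68 and Elovl3 at 0.01. The hair shaft list mean of week 13 ran from 7.24 to 11.47 in the vehicles, from 5.96 to 9.39 under il15rb, from 9.08 to 10.84 under jak3i and from 5.94 to 6.77 under jak12i. Of 10 hair shaft genes 8 fell under jak12i, and none was called under il15rb or jak3i. The list mean correlated with Dgat2 at r = -0.58, Scd1 at -0.45 and Scd3 at -0.38. How far each of these other tissues enters the values of Scd1, Scd3 and Dgat2 was not tested.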

How the data were processed

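The deposited table gives 45101 probe sets on 48 arrays as log2 values. The authors computed them by RMA (named, without a version, in the submitters' processing notes), which corrects background, normalizes between arrays and sums up a probe set. Whether 1 run covered all arrays is not given in the sources used here. Of the probe sets 34958 named 1 gene, 932 several and 9211 none. For a gene with several, the probe set with the highest average over the 47 arrays stood for it. A mean for each group was fitted over 47 arrays with limma 3.58.1 (R 4.3.3) and moderated by empirical Bayes. P-values, two-sided, were adjusted by Benjamini-Hochberg over the 13650 tested genes of a comparison, and genes were called at 0.05. The series calls its arrays biological replicates without naming animals, and their number limits the precision.

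The 6 genes, the 11 gene lists and the tests were chosen with earlier results of these data known. Named genes were the 6, the 3 genes most like each, the 5 most like their mean, and of the genes called in each lipid list those among the 4 of smallest p in at least 1 treatment comparison. Of 173 listed genes those with a tested probe set were counted. Replicate numbers were not taken to pair arrays. Correlations of equal numbers ran from -0.492 to 0.417, and without those of unequal numbers they cannot decide whether arrays were paired. The alternatives were quantile normalization, median centring, no filter or a stricter one, all probe sets of a gene, fits on fewer groups, array weights, a replicate block, pooled vehicles, the array of conflicting labels placed by title or by label, and leaving arrays out. The procedure was tested on simulated data.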

Additional observations from a re-analysis of the deposited data

Results flagged for a closer look

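Among the 25 pairs of a measured gene and a group of 4 or 5 arrays, 3 held an array far from the rest of its group, all in PBS ip of week 5, and chance gives such an array in about 1 of 20 groups. Replicate 5 read 13.18 for Scd1, where the others read 13.70 to 13.78, and 10.94 for Dgat2, where the others read 11.02 to 11.03. Replicate 3 read 5.84 for Mc5r, where the others read 5.47 to 5.53. Differences between weeks passed a test of the difference itself for Scd1, whose change under il15rb was larger by 0.68 at week 13 than at week 5, and for Scd3, whose change under jak3i was larger by 2.33 at week 13 than at week 6.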

How the results depend on the processing

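Every called change of Scd1, Scd3 and Dgat2 at week 13 kept its direction under all alternatives run. Where a call was lost or gained the cause was not tested. Fits on fewer groups have fewer arrays to estimate the spread. In the fit on week 13 alone the SEs under jak12i were also larger than in the main fit. They were 0.65 against 0.55 for Scd3, 0.21 against 0.16 for Scd1 and 0.20 against 0.15 for Dgat2. Scd3 under jak3i kept its call in every alternative (2.02 to 2.94). The main numbers of genes called were 10 for il15rb at week 5, 4 for PBS ip against sham at week 5, 559 for jak3i and 1308 for jak12i at week 6, and 3512 for il15rb, 2182 for jak3i and 2987 for jak12i at week 13. A change between weeks means the change at week 13 minus the earlier one. Groups of 3 to 5 arrays limit all of these results, and signals of Mc5r lay below the table median in all arrays. Among the 4 tested genes the replicate block changed no call but that of Scd3 for jak3i between weeks.

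With quantile normalization, the number of genes called was 6 for il15rb at week 5 and 1 for PBS ip against sham at week 5. With each array centred on its median, the sign turned of Scd1 for PBS pump against PBS gavage at week 6 (-0.0317) and Scd1 for PBS pump against PBS gavage at week 13 (0.0111). Without the filter, the number of genes called was 2 for PBS ip against sham at week 5. With the stricter filter, the number of genes called was 1 for PBS ip against sham at week 5. With the mean of all probe sets of a gene, the call was lost of Dgat2 for il15rb at week 13 (0.41, adjusted p = 0.0581). Scd3 for il15rb between weeks 13 and 5 (2.67, adjusted p = 0.0344) gained a call. Scd1 for PBS pump against PBS gavage at week 6 (-0.00337) and Scd1 for PBS pump against PBS gavage at week 13 (0.0435) changed sign. With the fit on the same week alone, the number of genes called was 52 for il15rb at week 5, 17 for PBS ip against sham at week 5, 350 for jak3i at week 6, 860 for jak12i at week 6 and 1304 for jak3i at week 13. Dgat2 for il15rb at week 13 (0.50, adjusted p = 0.0961), Scd1 for jak12i at week 13 (0.51, adjusted p = 0.105), Scd3 for jak12i at week 13 (1.71, adjusted p = 0.0871) and Dgat2 for jak12i at week 13 (0.60, adjusted p = 0.0605) lost the call. With the fit on both groups alone, the number of genes called was 39 for il15rb at week 5, 296 for jak3i at week 6, 564 for jak12i at week 6, 816 for il15rb at week 13, 496 for jak3i at week 13, 1907 for jak12i at week 13 and 20 for PBS ip against sham at week 5. Scd1 for il15rb at week 13 (0.89, adjusted p = 0.0729), Scd3 for il15rb at week 13 (2.67, adjusted p = 0.0681), Dgat2 for il15rb at week 13 (0.50, adjusted p = 0.155) and Scd1 for jak12i at week 13 (0.51, adjusted p = 0.0725) lost the call. Scd3 for jak12i at week 13 (1.71, adjusted p = 0.0904) lost the call. Dgat2 for PBS pump against PBS gavage at week 6 (-0.27, adjusted p = 0.0282) gained a call. With the replicate number as a block, though the numbers were not taken to pair arrays, the number of genes called was 1 for il15rb at week 5 and 0 for PBS ip against sham at week 5. Scd3 for jak3i between weeks 13 and 6 (2.11, adjusted p = 0.0786) lost the call. Dgat2 for il15rb at week 5 (-0.0661) and Elovl3 for PBS ip against sham at week 5 (0.23) changed sign. With array weights, the number of genes called was 469 for il15rb at week 5, 1663 for jak3i at week 6, 6352 for il15rb at week 13, 3687 for jak3i at week 13 and 129 for PBS ip against sham at week 5. Elovl3 for jak12i at week 6 (1.14, adjusted p = 0.0166), Scd1 for jak3i at week 13 (0.51, adjusted p = 0.00675), Dgat2 for jak3i at week 13 (0.36, adjusted p = 0.0323) and Scd1 for PBS pump against PBS ip at week 13 (0.38, adjusted p = 0.0342) gained a call. Scd3 for PBS pump against PBS ip at week 13 (1.25, adjusted p = 0.0161), Scd1 for PBS gavage against PBS ip at week 13 (0.58, adjusted p = 0.00893), Scd3 for PBS gavage against PBS ip at week 13 (1.99, adjusted p = 0.00239) and Scd3 for il15rb between weeks 13 and 5 (2.89, adjusted p = 3.96e-05) gained a call. Elovl3 for il15rb between weeks 13 and 5 (-1.24, adjusted p = 0.0352), Dgat2 for il15rb between weeks 13 and 5 (0.59, adjusted p = 0.00371), Scd1 for jak3i between weeks 13 and 6 (0.61, adjusted p = 0.0274) and Scd1 for jak12i between weeks 13 and 6 (0.53, adjusted p = 0.0383) gained a call. Elovl3 for jak12i between weeks 13 and 6 (-1.44, adjusted p = 0.0324) and Dgat2 for jak12i between weeks 13 and 6 (0.46, adjusted p = 0.0419) gained a call. Dgat2 for il15rb at week 5 (-0.00147), Scd1 for PBS pump against PBS gavage at week 6 (-0.0173), Elovl3 for PBS pump against PBS ip at week 13 (-0.30) and Dgat2 for PBS pump against PBS gavage at week 13 (-0.10) changed sign. With the array of conflicting labels in PBS ip, the number of genes called was 1 for il15rb at week 5. Scd3 for il15rb between weeks 13 and 5 (2.27, adjusted p = 0.0351) gained a call. Dgat2 for il15rb at week 5 (-0.00836) changed sign. With that array in il15rb, the number of genes called was 24 for il15rb at week 5. Scd3 for il15rb between weeks 13 and 5 (2.28, adjusted p = 0.0365) gained a call. With all vehicles of a week pooled, the number of genes called was 3577 for jak3i at week 6 and 5201 for jak12i at week 13. Scd1 for jak3i at week 13 (0.46, adjusted p = 0.0120) gained a call. Dgat2 for jak3i at week 6 (-0.0876) changed sign. Without the arrays of low muscle signal, the number of genes called was 29 for il15rb at week 5, 860 for jak12i at week 6 and 2186 for il15rb at week 13. Dgat2 for il15rb at week 13 (0.37, adjusted p = 0.120) and Scd1 for il15rb between weeks 13 and 5 (0.54, adjusted p = 0.131) lost the call. Elovl3 for jak12i at week 6 (1.07, adjusted p = 0.0472) and Elovl3 for jak12i between weeks 13 and 6 (-1.45, adjusted p = 0.0479) gained a call. Scd3 for PBS pump against PBS ip at week 13 (-0.19), Dgat2 for PBS pump against PBS ip at week 13 (-0.19), Dgat2 for PBS gavage against PBS ip at week 13 (-0.0925) and Dgat2 for PBS pump against PBS gavage at week 13 (-0.0943) changed sign. Without the arrays of high hair shaft signal in weeks 5 and 6, the number of genes called was 708 for jak12i at week 6 and 2 for PBS ip against sham at week 5. Scd3 for jak3i between weeks 13 and 6 (2.33, adjusted p = 0.0514) lost the call. Elovl3 for PBS ip against sham at week 5 (0.0969) changed sign.

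Leaving out 1 array at a time, the number of genes called ran from 0 to 14 for il15rb at week 5, 0 to 3 for PBS ip against sham at week 5, 165 to 895 for jak3i at week 6, 773 to 1414 for jak12i at week 6, 1812 to 4377 for il15rb at week 13, 1399 to 1999 for jak3i at week 13 and 1449 to 2846 for jak12i at week 13. The change of Dgat2 ran from -0.0271 to 0.0353 for il15rb at week 5, 0.41 to 0.57 for jak12i between weeks 13 and 6, 0.35 to 0.66 for il15rb at week 13, -0.0804 to 0.34 for jak3i between weeks 13 and 6 and 0.33 to 0.65 for il15rb between weeks 13 and 5. The change of Dgat2 also ran from -0.0717 to 0.22 for PBS pump against PBS ip at week 13, -0.0925 to 0.20 for PBS gavage against PBS ip at week 13 and -0.0943 to 0.10 for PBS pump against PBS gavage at week 13. The change of Scd1 ran from 0.54 to 0.95 for il15rb between weeks 13 and 5, -0.0192 to 0.0498 for PBS pump against PBS gavage at week 6, -0.0647 to 0.00433 for jak12i at week 6, 0.37 to 0.64 for jak12i at week 13 and 0.18 to 0.59 for PBS pump against PBS ip at week 13. The change of Scd1 also ran from 0.19 to 0.60 for PBS gavage against PBS ip at week 13, -0.16 to 0.12 for PBS pump against PBS gavage at week 13 and 0.40 to 0.67 for jak12i between weeks 13 and 6. The change of Elovl3 ran from -0.0184 to 0.61 for il15rb at week 5, -0.32 to 0.20 for PBS ip against sham at week 5, 0.63 to 1.11 for jak12i at week 6, -1.50 to -1.01 for jak12i between weeks 13 and 6 and -0.0482 to 0.77 for PBS pump against PBS gavage at week 6. The change of Elovl3 also ran from -0.79 to 0.0257 for jak3i between weeks 13 and 6, -0.14 to 0.43 for jak3i at week 13 and -0.0498 to 0.52 for PBS pump against PBS ip at week 13. The change of Scd3 ran from -0.28 to 0.00459 for PBS ip against sham at week 5, 1.90 to 2.64 for jak3i between weeks 13 and 6, -0.0745 to 0.43 for jak3i at week 6, 1.83 to 2.95 for il15rb between weeks 13 and 5 and 1.30 to 2.43 for jak12i at week 13. The change of Scd3 also ran from 0.54 to 1.98 for PBS gavage against PBS ip at week 13.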

Other observations

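The array titled PBS ip week 5 replicate 1, whose treatment label names the antibody and which was placed in no group, read 13.81 for Scd1, 10.78 for Scd3, 9.89 for Elovl3, 11.11 for Dgat2 and 5.87 for Mc5r.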
